A study of Caenorhabditis elegans with 2 samples.

Results

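Of the 18 sls-2 genes of Caenorhabditis elegans, which encode the SL2 family of spliced leader RNAs, 4 had a peak of the nucleolar protein DAO-5 within 200 bp in the authors' thresholded peak list. These were sls-2.8 and a group of close copies, sls-2.1 with sls-2.2 and sls-2.4. The 4 genes were chosen by that readout, out of 30 annotated spliced leader RNA genes (18 sls-2 and 12 sls-1). Their signals, also those of the replicates, are therefore given as descriptions and no test was made on them. The remaining 14 sls-2 genes and the 12 sls-1 genes served for comparison, and 1 annotated sls-2 pseudogene, sls-2.19, was left out.

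DAO-5, the worm relative of vertebrate Nopp140, was precipitated from chromatin through its GFP tag, and the DNA bound with it was sequenced (ChIP-seq). The chromatin came from whole hermaphrodites of strain OP252 at the L4/young adult stage, a transgenic line in which DAO-5 carries a GFP-FLAG tag at its C-terminus, and the antibody was to GFP. The single group held 2 biological replicates with 1 control in common, and an untagged strain was not analysed here. The sources used here do not name the promoter that drives the fusion protein, whole animals mix all tissues, and the assay reads DNA near the protein, not the RNA made from a gene. Lists in the ce11 build held 549 thresholded peaks, 16687 pooled peaks, 23091 peaks in replicate 1 and 21273 in replicate 2. Each peak carries the authors' signal value, which has no stated unit and is used below only to describe and rank peaks within a list. Sequencing depth is unknown.

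In nematodes many messenger RNAs begin with a short leader that is cut from a spliced leader RNA and joined to them by trans-splicing. SL1, from the sls-1 genes, is joined to the first or only message of a transcription unit, and SL2, from the sls-2 genes, mainly to messages of downstream genes in operons. Spliced leader RNAs are small nuclear RNAs made by RNA polymerase II with the SNAP complex at their promoters, and each carries a site bound by Sm proteins, which mark the particles of the splicing machinery. DAO-5 and Nopp140 are known as proteins of the nucleolus and, in vertebrates, of the Cajal body, where small nuclear RNAs are modified.

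The sequences of 3 of the 4 genes are shown with the genes they are compared with, since their differences are what separates the copies. They are the RefSeq genes of assembly WBcel235 (ce11), read on the gene's own strand, with the leader in capitals, up to the GT of the splice site. The gene sls-2.3 is the closest copy of sls-2.2 and was not reached by the thresholded list, sls-2.16 is the sls-2 gene just below the authors' threshold, and sls-1.2 stands for the 10 identical sls-1 genes of 98 bp.
sls-2.1: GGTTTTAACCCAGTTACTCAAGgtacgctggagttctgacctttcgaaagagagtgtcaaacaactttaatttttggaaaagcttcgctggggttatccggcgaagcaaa
sls-2.2: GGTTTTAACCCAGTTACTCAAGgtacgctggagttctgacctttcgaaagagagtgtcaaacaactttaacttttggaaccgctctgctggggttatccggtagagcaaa
sls-2.3: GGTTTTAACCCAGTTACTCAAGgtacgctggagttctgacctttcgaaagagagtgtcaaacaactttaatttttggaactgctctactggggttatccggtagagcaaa
sls-2.8: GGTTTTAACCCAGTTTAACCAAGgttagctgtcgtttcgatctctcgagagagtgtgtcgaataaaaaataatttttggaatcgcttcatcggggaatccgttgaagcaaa
sls-2.16: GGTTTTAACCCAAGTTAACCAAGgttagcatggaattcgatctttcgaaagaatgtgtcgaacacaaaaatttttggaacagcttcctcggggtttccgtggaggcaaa
sls-1.2: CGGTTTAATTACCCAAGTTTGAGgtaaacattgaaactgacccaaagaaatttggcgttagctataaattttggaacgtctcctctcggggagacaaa

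The 4 genes carried 2 different leaders. The leader of sls-2.1, with 22 bases, was common to sls-2.1 through sls-2.4, so 3 of the 4 genes with this leader had a thresholded peak and 1 did not. The leader of sls-2.8, with 23 bases, was found in no other sls-2 gene. Over all 18 genes there were 11 different leaders of 21 to 23 bases, and 9 of them belonged to no gene with a thresholded peak. Over the whole gene, the 4 copies with the leader of sls-2.1 were 90.9 to 97.3% identical to each other. The closest copy of sls-2.2 was sls-2.3 (97.3%), those of sls-2.1 were sls-2.2 and sls-2.3 alike (92.7% each), and that of sls-2.4 was sls-2.2 (96.4%). The gene sls-2.8 stood further off, with 83.2% identity to its closest copy, sls-2.7, and a median of 77.9% to the other sls-2 genes. Identity to the 98 bp sls-1 genes ran from 57.3% for sls-2.8 to 63.0% for sls-2.4.

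The Sm site is known from letters of the type AATTTTTG. This word, read on the gene's strand, was present in 13 of the 18 sls-2 genes, among them sls-2.1, sls-2.4 and sls-2.8, and in 0 of the 12 sls-1 genes. The related word AATTTTGG was present in all 12 sls-1 genes and in 3 sls-2 genes. Neither word was found in sls-2.2, which had a thresholded peak, or in sls-2.18, which had none. A match is a description of these letters and says nothing of Sm binding.

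Promoter sequence is shown because the copies that share a leader also shared letters upstream, with and without a thresholded peak. The 100 bases before each gene are given on the gene's strand, from RefSeq WBcel235, with the longest word common to all 4 genes with the leader of sls-2.1 in capitals; sls-2.8 does not hold that word.
sls-2.1: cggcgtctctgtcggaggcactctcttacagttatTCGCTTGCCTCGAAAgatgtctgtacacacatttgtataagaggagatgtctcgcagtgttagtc
sls-2.2: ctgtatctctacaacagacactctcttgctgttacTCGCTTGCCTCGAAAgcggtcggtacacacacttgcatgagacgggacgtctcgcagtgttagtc
sls-2.3: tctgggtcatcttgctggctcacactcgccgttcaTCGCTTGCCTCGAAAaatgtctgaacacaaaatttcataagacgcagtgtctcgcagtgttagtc
sls-2.8: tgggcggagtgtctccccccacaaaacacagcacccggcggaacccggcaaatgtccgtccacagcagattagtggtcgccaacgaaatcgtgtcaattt

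The word TCGCTTGCCTCGAAA, of 15 bases, ended 50 bases before the first base of each gene with the leader of sls-2.1. Searched on both strands, it occurred in 4 of 46886 windows of 100 bases before nuclear genes (0.00853%), which were those of these 4 genes. It was therefore present at sls-2.3, which had no thresholded peak, and absent at sls-2.8, which had one. The longest words shared by all 4 genes with a thresholded peak had 5 bases. ACACA occurred in 18% of all windows on either strand. CGAAA occurred in 28.2% of them. GTCTC occurred in 10.2%.

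Peak signals at the 4 genes were high in the pooled list and, for 3 of them, in each replicate. At sls-2.1 (chrII:5844865-5844974, plus strand, 110 bp) the signal was 60.9 in replicate 1, 62.9 in replicate 2 and 121.2 in the pooled list. These peaks ranked 43, 42 and 42 in their lists, counted from the strongest. The replicate mean was 61.9 ± 1.4 (SD, n = 2), and the larger value was 1.03 times the smaller, the closest pair of strongest-peak values among the 4. These peaks lay at different places, with summits at 98 bp (replicate 1) and −55 bp (replicate 2) from the first base. The second peak of replicate 2 had its summit at 152 bp and a signal of 34.7. The close pair thus does not describe a single position.

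At sls-2.2 (chrII:5543598-5543707, plus strand, 110 bp) the signal was 51.9 in replicate 1, 58.2 in replicate 2 and 108.2 in the pooled list. Ranks were 74, 56 and 57. The replicate mean was 55.0 ± 4.45 (SD, n = 2). This gene forms a tail-to-tail pair with sls-2.3 (chrII:5544164-5544273, minus strand, 110 bp), with 456 bp between them. At sls-2.3 the strongest peak within 200 bp had a signal of 17.6 in replicate 1, 18.9 in replicate 2 and 20.8 in the pooled list, where it ranked 9033. The replicate 1 value of sls-2.3 came from a peak between the genes (chrII:5543665-5544100) that also overlaps sls-2.2, and the peak over sls-2.3 itself had a signal of 9.0. Of this pair of neighbouring genes with 97.3% identity, sls-2.2 had signals of 51.9 to 108.2 over the lists. Peaks overlapping sls-2.3 had signals of 9.0 in replicate 1, 18.9 in replicate 2 and 20.8 in the pooled list.

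At sls-2.4 (chrI:4172206-4172315, plus strand, 110 bp) the signal was 72.3 in replicate 1, 52.9 in replicate 2 and 125.1 in the pooled list. Ranks were 31, 67 and 36. The pooled value was the highest at any spliced leader gene. The replicate mean was 62.6 ± 13.7 (SD, n = 2), with a larger value 1.37 times the smaller. The replicate values of sls-2.4 enclosed those of sls-2.1 and overlapped those of sls-2.2, so the pooled order of these 3 genes is not one that both replicates give: sls-2.4 was the highest of the 3 in replicate 1 and the lowest in replicate 2. Both replicates had sls-2.1 above sls-2.2.

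At sls-2.8 (chrIII:12250465-12250575, plus strand, 111 bp) the signal was 42.5 in replicate 1, 21.6 in replicate 2 and 58.5 in the pooled list. Ranks were 161, 1168 and 386. The replicate mean was 32.0 ± 14.8 (SD, n = 2), with a larger value 1.97 times the smaller. By its strongest peaks this gene was the weakest of the 4 in every list and the one for which the replicates differed most. These strongest peaks lay at different places, with summits 27 bp (replicate 1) and 209 bp (replicate 2) from the first base. The second peak of replicate 1 had its summit at 227 bp and a signal of 25.1, near the 21.6 of replicate 2. The mean and ratio thus do not describe a single position. In replicate 2 it lay below sls-2.9 (44.4) and sls-2.15 (28.7), which had no thresholded peak.

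**Figure D1:**
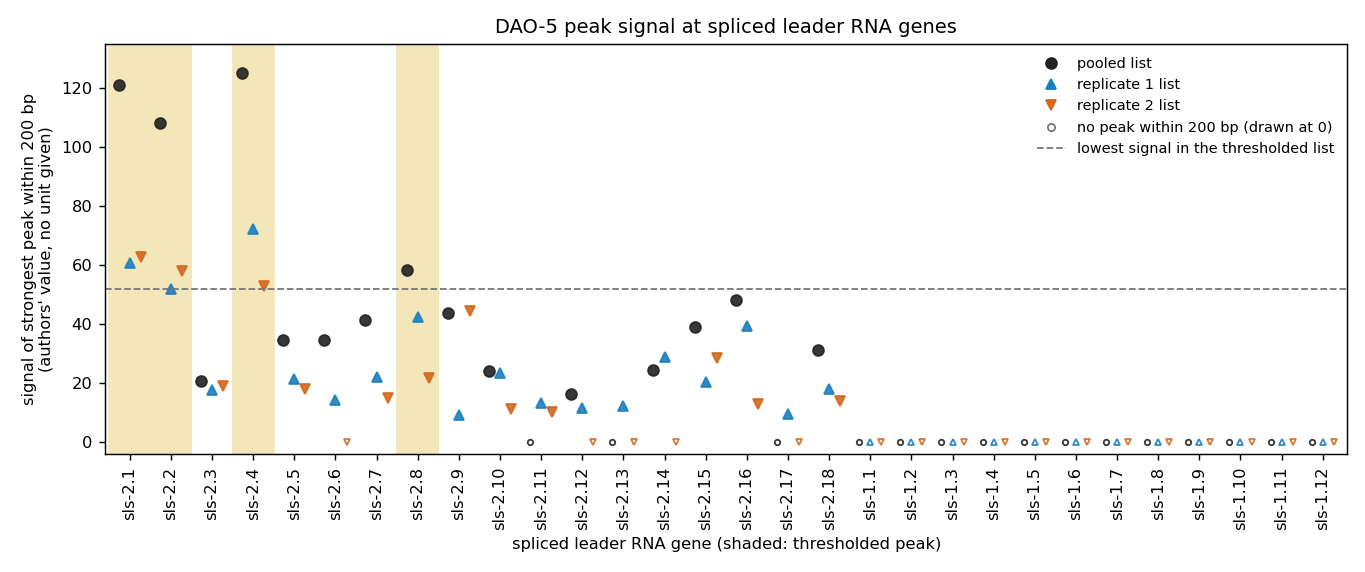
Signal of the strongest peak within 200 bp (vertical axis, the authors' value without a unit) for each of the 30 spliced leader RNA genes (horizontal axis), in the lists from pooled reads and from each replicate; small open symbols at 0 mark genes without a peak, shading marks the 4 genes with a thresholded peak, and the dashed line is the lowest thresholded signal, 51.8. Pooled signals of the shaded genes run from 58.5 to 125.1, and the 12 sls-1 genes have no peak in any list.

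The 549 thresholded peaks were the 549 strongest pooled peaks, with a lowest signal of 51.8 and a median of 65.6. Among the sls-2 genes, sls-2.8 with 58.5 was the one just inside this limit and sls-2.16 with 48.1 the one just outside. The replicates of sls-2.16 gave 39.4 (rank 209) in replicate 1 and 12.9 (rank 6614) in replicate 2, a ratio of 3.06, so this gene stood close to sls-2.8 in replicate 1 and well below it in replicate 2. The thresholded list placed sls-2.4 at rank 36, followed by 42 for sls-2.1, 57 for sls-2.2 and 386 for sls-2.8. Mitochondrial DNA held 17 of the stronger peaks, and among nuclear peaks alone the ranks of these genes were 19, 25, 40 and 369.

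As a share of each list, the pooled ranks put sls-2.4 in the top 0.216%, sls-2.1 in the top 0.252%, sls-2.2 in the top 0.342% and sls-2.8 in the top 2.31%. The highest nuclear signal in the pooled list was 257.9, and its median was 21.3. The −log10 q of the 4 genes' peaks was the highest in the pooled list, a value that 625 peaks have in common, and it was a single constant in the thresholded list, so it orders none of them.

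**Figure D2:**
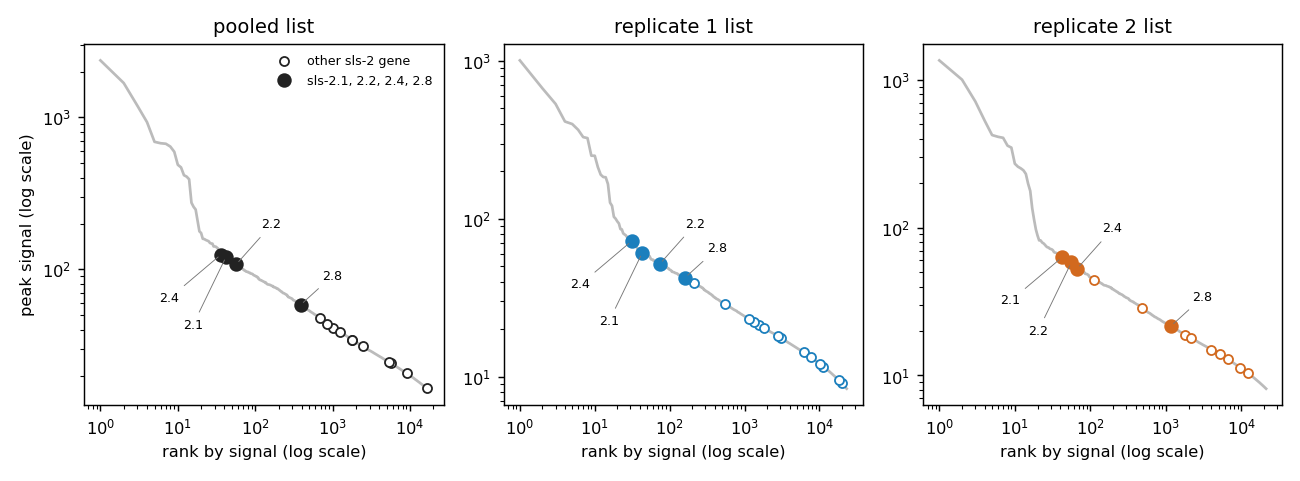
Signal against rank for all peaks of the pooled, replicate 1 and replicate 2 lists (grey line; both axes logarithmic), with the strongest peak at each sls-2 gene as a filled circle for the 4 genes with a thresholded peak and an open circle for the others. All but sls-2.8 of the filled circles sit between ranks 31 and 74 in all 3 lists, whereas it ranks 161 in replicate 1 and 1168 in replicate 2.

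Peak summits lay within or just past the RNA genes in the pooled list. They lay 92 bp from the first base at sls-2.1, 94 bp at sls-2.2 and 94 bp at sls-2.4, near the 3′ end of genes of 110 bp. At sls-2.8 the pooled summit lay 115 bp from the first base, just past the end of the gene. Nearly all peaks in a list have one fixed width, 430 bp for pooled peaks, 436 bp for replicate 1 and 420 bp for replicate 2, so a summit is the centre of its peak, and these intervals do not measure how broad the enrichment was.

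Replicate summits were less uniform than the pooled ones. At sls-2.2 they lay at 71 bp in replicate 1 and 86 bp in replicate 2, and at sls-2.4 at 95 and 59 bp, all within the gene. At sls-2.1 the replicate 1 summit lay at 98 bp and the replicate 2 summit 55 bp before the gene (−55). At sls-2.8 they lay at 27 and 209 bp, inside the gene in one replicate and past it in the other.

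Second peaks lay downstream of the first at all 4 genes in replicate 1. Their signals there were 24.8 at sls-2.1, 17.6 at sls-2.2, 30.4 at sls-2.4 and 25.1 at sls-2.8, with summits 199 to 214 bp after the first summit. Replicate 2 had second peaks at sls-2.1 (34.7) and sls-2.4 (14.7), and the pooled list at sls-2.4 (35.2) and sls-2.8 (25.6). Peaks were ordered by signal, so the second peak is the weaker by definition, and in each of these cases it overlapped the first. The shortest distance between summits was 199 bp in each of the 4 lists, and neighbouring summits up to 250 bp apart made up 6.99% of pooled, 8.1% of replicate 1 and 7.39% of replicate 2 gaps. Whether such pairs are separate sites was not tested.

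**Figure D3:**
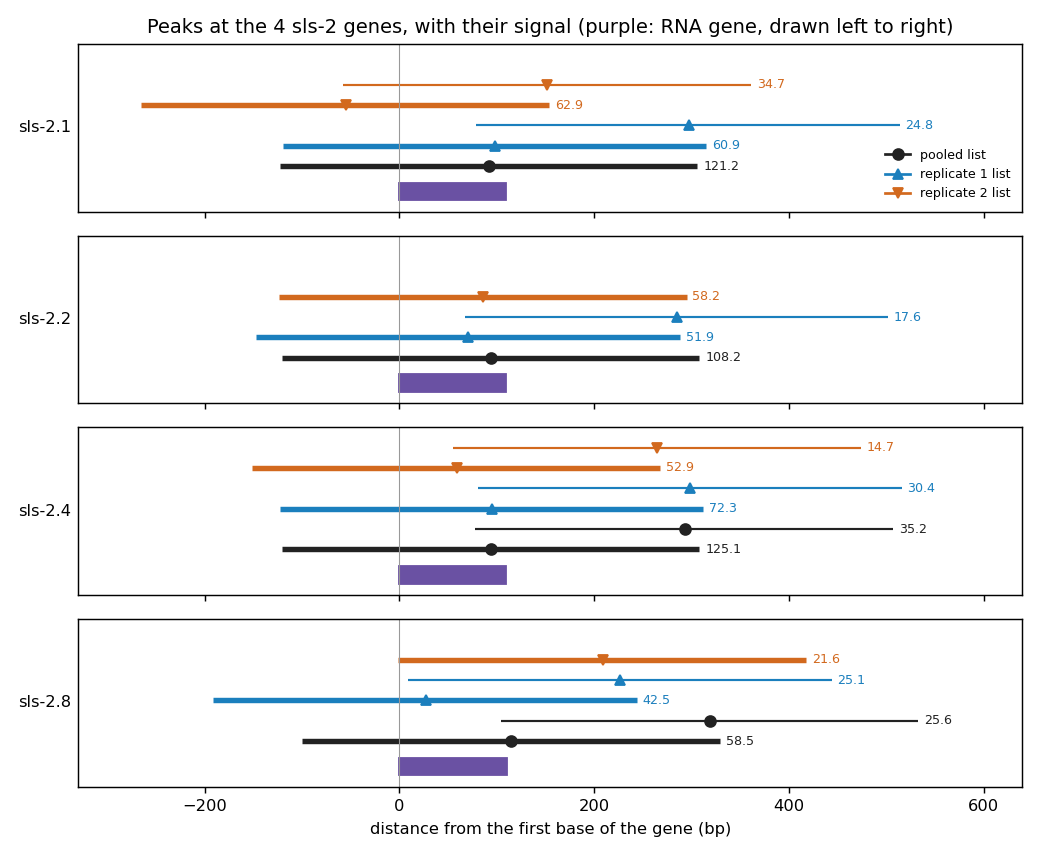
Position of every listed peak within 200 bp of sls-2.1, sls-2.2, sls-2.4 and sls-2.8, as distance in bp from the first base of the gene, with transcription from left to right. The purple box is the RNA gene, thick lines are the strongest peak of each list, thin lines second peaks, symbols the summits and numbers beside the lines the signals; the strongest pooled summits lie 92 to 115 bp from the first base and every second peak lies to the right of the first.

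The nearest annotated gene was protein-coding on both sides of 3 of the 4 genes and on the left side of sls-2.2, whose right neighbour is sls-2.3. Around sls-2.1 the nearest genes were nep-25, of the neprilysin family of metallopeptidases, 244 bp to the left and ZK1248.17 279 bp to the right, and neither was overlapped by the pooled peak (chrII:5844742-5845171). At sls-2.2 the nearest annotated gene to the left was C17C3.24, 1812 bp away, and the pooled peak was chrII:5543477-5543906. At sls-2.4 the gene to the left was egg-5, which acts in egg activation, 616 bp away. The pooled peak of sls-2.4 (chrI:4172085-4172514) overlapped the 3′ end of R12E2.11, a gene on the other strand that ends 122 bp to the right.

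At sls-2.8 the pooled peak (chrIII:12250365-12250794) took in the start of a protein-coding gene, Y75B8A.23, which begins 84 bp after the end of sls-2.8 and 80 bp to the right of the summit. The replicate 2 summit lay beyond that start, 209 bp from the first base of sls-2.8. To the left, tim-1, the worm relative of Timeless, was 300 bp away. At sls-2.8 a peak at the RNA gene and a peak at the start of Y75B8A.23 cannot be told apart, whereas the other 3 pooled peaks held no start of a protein-coding gene.

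Antisense non-coding RNAs were annotated over 3 of the 4 genes: C17C3.23 over sls-2.2, R12E2.18 over sls-2.4 and Y75B8A.49 over sls-2.8. Of the other 14 sls-2 genes, 1 had such an annotation, C17C3.22 over sls-2.3. ChIP-seq has no strand, so a peak over a gene and its antisense partner cannot be told apart. None of the 4 genes lay inside a protein-coding gene, while 7 of the other 14 did: sls-2.5, sls-2.16 and sls-2.18 in glr-2, a glutamate receptor gene, sls-2.6 in hgo-1, sls-2.11 in daf-10, and sls-2.14 and sls-2.15 in W09D6.5. The part of these settings in the signal was not tested. No other small RNA gene lay within 200 bp of the 4 pooled peaks.

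The other 14 sls-2 genes were mostly listed too, at lower signal. In the pooled list 11 of these 14 had a peak within 200 bp (78.6%), where 30.5% of nuclear genes of 50 to 200 bp and 36.4% of 99 other snRNA genes did. In both replicate lists 9 of the 14 had one (64.3%), against 22.3% of genes of that length and 29.3% of other snRNA genes. With the 4 genes, which the thresholded list places in the pooled list by construction, the counts were 15 and 13 of 18. A peak in each replicate list need not be the same peak. At sls-2.11 the summits lay 451 bp (replicate 1) and −236 bp (replicate 2) from the first base, and neither peak overlapped the gene. By overlap the 13 became 10, and no share of other genes is given for that setting. In the thresholded list the 4 of 18 (22.2%) stood beside 2.21% of all 46890 nuclear genes, 6.35% of genes of 50 to 200 bp and 6.06% of other snRNA genes. That count chose the 4 genes, and nothing is read from it.

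Pooled signals of the 11 other sls-2 genes that had a peak ran from 16.5 to 48.1 with a median of 34.5, all under the 58.5 of sls-2.8, as the threshold requires. In descending order they were 48.1 at sls-2.16, 43.9 at sls-2.9, 41.3 at sls-2.7, 38.9 at sls-2.15, 34.6 at sls-2.6, 34.5 at sls-2.5, 31.3 at sls-2.18, 24.5 at sls-2.14, 24.1 at sls-2.10, 20.8 at sls-2.3 and 16.5 at sls-2.12. The 3 without a pooled peak were sls-2.11, sls-2.13 and sls-2.17. Replicate 1 listed a peak at all 14 of these genes, with signals of 9.1 to 39.4 and a median of 17.9, below the 42.5 to 72.3 (median 56.4) of the 4 genes with a thresholded peak. Replicate 2 listed 9 of the 14, with signals of 10.4 to 44.4 and a median of 14.9, and this range overlapped the 21.6 to 62.9 (median 55.5) of the 4. The genes with no replicate 2 peak were sls-2.6, sls-2.12, sls-2.13, sls-2.14 and sls-2.17. Some replicate 1 values, such as 9.1 at sls-2.9 and 9.5 at sls-2.17, lay near that list's lowest signal, 8.4. The share of all genes with a peak was not counted for a single replicate list, so nothing is read from these counts. The 4 genes were chosen on reads that both replicates supplied, so their higher replicate signals are no independent comparison.

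Some of the weaker peaks lay away from the RNA gene they were counted for. Counted from the first base of the gene, with negative values upstream, the pooled summit lay at −323 bp for sls-2.6 and −213 bp for sls-2.9. It lay past the end of the gene at 132 bp for sls-2.10, 184 bp for sls-2.16 and 187 bp for sls-2.12. Further past the end were the summits of sls-2.14 (232 bp), sls-2.15 (243 bp) and sls-2.18 (259 bp). At sls-2.9 the pooled summit lay 9 bp from a tRNA gene, M01E5.t1. The strongest peak there was at rank 19956 in replicate 1 and at rank 113 in replicate 2, and the larger signal was 4.9 times the smaller. The pooled peak counted for sls-2.9 thus lay nearer to another small RNA gene, which was the case at none of the 4 genes with a thresholded peak.

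Across the 13 sls-2 genes listed in both replicates, the Spearman correlation of the signals was 0.45. Across the 9 of these without a thresholded peak it was −0.38. These are descriptions across genes, which have their libraries in common. Each value is that of the strongest peak in a replicate, and the paired peaks need not be the same peak. Summits lay at 390 bp (replicate 1) and −72 bp (replicate 2) for sls-2.3, and at 16 and 267 bp for sls-2.15. The coefficients therefore do not measure how well single peaks were reproduced. In both replicates the 3 highest sls-2 genes were those with a thresholded peak other than sls-2.8. The list that chose them has its reads in common with both replicates, so the replicates are no independent check of these genes.

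Each replicate was also read alone, by as many of its strongest peaks as the thresholded list holds. Among the 549 strongest peaks of replicate 1, 5 sls-2 genes were reached, the 4 genes and sls-2.16. Among the 549 strongest of replicate 2, 5 were reached as well, namely 3 of the 4 genes with sls-2.9 and sls-2.15 in place of sls-2.8.

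The family is spread over 4 chromosomes. The 18 sls-2 genes lay on chromosomes I (4 genes, 1 with a thresholded peak), II (3 genes, 2 with one), III (6 genes, 1 with one) and IV (5 genes, 0 with one). All 3 sls-2 genes of chromosome II carry the leader of sls-2.1.

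The sls-1 genes had no peak in any list. In the thresholded, pooled, replicate 1 and replicate 2 lists, 0 of the 12 genes had a peak within 200 bp. They lie in a tandem array on chromosome V (chrV:17118154-17132107, 13954 bp) with a median spacing of 976 bp, among the 5S ribosomal RNA genes. Of these genes 10 are 98 bp long and identical to each other, and 2 are annotated at 68 bp. The array lay inside a stretch of 23238 bp without a listed peak in either replicate (chrV:17112690-17135927), which held the 12 sls-1 and 14 5S rRNA genes. Of 30628 gaps between peaks of the combined replicate lists, 117 (0.382%) were at least that long, and the median gap was 1454 bp.

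Sequence that occurs once in the genome was unequally spread over these genes. In the sls-1 genes, 0% of words of 30 bases were found once, and with 200 bp to each side the share was 0% for 10 genes, 0.64% for sls-1.10 and 19.2% for sls-1.12. In the gene and 200 bp to each side, the share was 85.9% for sls-2.1, 87.9% for sls-2.2, 95.0% for sls-2.4 and 100% for sls-2.8. Within the gene alone it was 38.3%, 49.4%, 72.8% and 100%. How reads with several matching places were treated is not stated in the sources, so at the sls-1 array a lack of DAO-5 and a lack of placed reads cannot be told apart.

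Between sls-2.1 and sls-2.3 these shares were equal (38.3% in the gene and 85.9% with the flanks), while their pooled signals were 121.2 and 20.8. Across the other 14 sls-2 genes the flanked share ran from 51.8 to 99.8%, a range that overlaps that of the 4 genes. The gene sls-2.12, with the lowest share, had a pooled signal of 16.5, while the 3 genes without a pooled peak had shares of 82.3% (sls-2.11), 90.6% (sls-2.13) and 82.1% (sls-2.17).

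**Figure D4:**
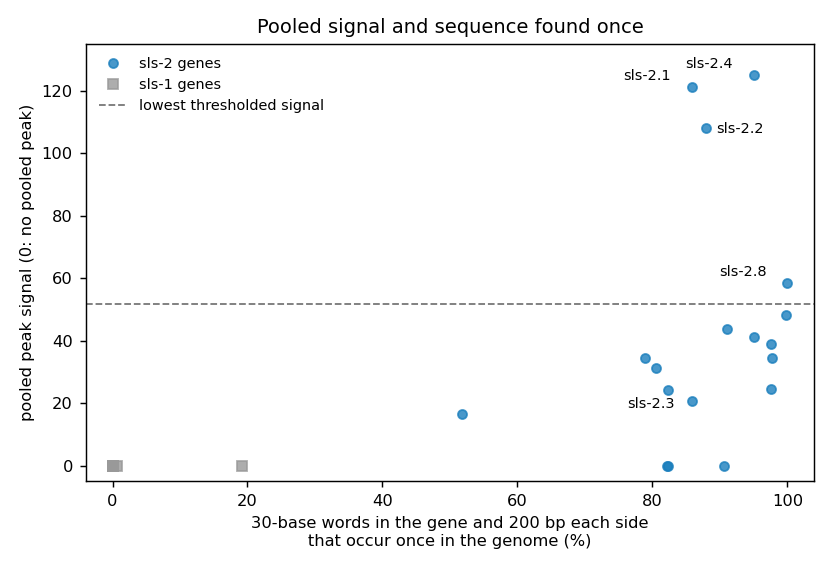
Pooled peak signal (vertical axis; 0 where no pooled peak was listed) against the percentage of 30-base words in the gene and 200 bp to each side that occur once in the genome (horizontal axis) for 18 sls-2 genes (circles) and 12 sls-1 genes (squares); the dashed line is the lowest thresholded signal, 51.8. The sls-1 genes lie at 0 to 19.2% with no peak, and sls-2.1 and sls-2.3 have the same share with signals of 121.2 and 20.8.

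Among snRNA genes outside the spliced leader families, 36 of 99 had a pooled peak within 200 bp, with signals of 16.8 to 108.2 and a median of 32.1. The strongest of these, W05B2.8 (108.2, rank 58), came directly after sls-2.2 in the pooled list. The 6 with a thresholded peak were W05B2.8, sup-6 (96.3), C52E4.8 (84.7), H27M09.6 (68.8), T08G5.11 (55.9) and M163.13 (52.4). The genes sls-2.4 and sls-2.1 thus had higher pooled signals than any gene of this class. These genes were named for their pooled signals, after their values were seen.

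Genes for the proteins that make or use spliced leader RNAs were examined from a list of 37, of which 33 were matched by symbol; sidr-1, sidr-2, snpc-1.5 and ints-12 were not. A thresholded summit lay in the promoter window, from 1000 bp before to 200 bp after the start, of 4 of the 33 (12.1%), and 1.22% of 19971 protein-coding genes had one. They were snr-4 and snr-1, which encode Sm core proteins, ints-4, a subunit of the Integrator complex that cleaves the 3′ ends of snRNAs, and cpf-2, the relative of the cleavage stimulation factor subunit CstF-64. By group the count was 2 of 7 Sm proteins, 1 of 11 Integrator subunits, 1 of 3 splice site and processing factors, 0 of 7 SNAP complex subunits, 0 of 4 proteins of the SL snRNP (sna-1, sna-2, sna-3 and sut-1), and 0 of 1 for the cap hypermethylase tgs-1. In the pooled list 12 of the 33 had a summit there. The share of all protein-coding genes was counted for thresholded summits alone, so nothing is read from this pooled count.

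Pooled signals at these promoters ran from 55.4 to 84.7, on both sides of the 58.5 of sls-2.8. At snr-4 they were 48.7 in replicate 1, 34.1 in replicate 2 and 84.7 in the pooled list (rank 120), and that peak lay within 200 bp of the snRNA gene C52E4.8, from which it cannot be told apart. At ints-4 they were 36.9, 37.7 and 75.0 (rank 192). At snr-1 they were 27.3, 29.8 and 58.9 (rank 380), and at cpf-2 27.3, 24.1 and 55.4 (rank 453). All 4 had lower pooled signals than the 3 strongest sls-2 genes.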

How the data were processed

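Peak lists of 1 group with 2 biological replicates were used as deposited in build ce11: 1 list per replicate, 1 from pooled reads and 1 thresholded on the irreproducible discovery rate, per the notes deposited with them. The ce10 lists were not used. Each peak has a signal and a −log10 q value from the authors. The sources used here name no aligner, peak caller, version, signal scaling or threshold, nor how reads with several matching places were treated.

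From these lists the following was computed. Peaks were ranked by deposited signal within each list. A gene was reached when a peak lay within 200 bp of it. Coordinates are 1-based, and genes and sequences are from RefSeq WBcel235, the same assembly. A leader ran to the GT of the 5′ splice site, in place of the fixed 22 bases planned at first. Identity came from global alignment (match 1, mismatch −1, gap opening −2, gap extension −0.5). Words of 30 bases were counted on both strands of the genome.

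The genes, the lists of comparison genes and the settings were chosen with earlier results of these data known, and the background of genes of 50 to 200 bp after the values were seen. Named were the 4 genes, the other sls-2 and sls-1 genes, the nearest neighbours, small RNA genes within 200 bp of the peaks, and trans-splicing genes with a thresholded promoter peak; M01E5.t1 and snRNA genes outside the families were added after their values were seen. No statistical test was made. The counting of reached genes was tested on simulated lists. Alternatives were other distances, thresholds, rankings and word lengths, and each replicate alone. Python 3.11.15, numpy 2.4.6, pandas 2.3.3, scipy 1.17.1, biopython 1.88 and matplotlib 3.10.9 were used.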

Additional observations from a re-analysis of the deposited data

How the results depend on the processing

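The count of 4 sls-2 genes with a thresholded peak was 4 by overlap of at least 1 bp or by the summit, 5 within 500 or 1000 bp, which added sls-2.3, and 3 among the stronger peaks above the median, which lost sls-2.8. The thresholded peak of sls-2.2 itself lies within 500 bp of sls-2.3, so the added gene need not have a peak of its own. Every pooled peak gave 15. Without replicate 1 or without replicate 2, the strongest 549 peaks of the remaining list gave 5 in each case, and sls-2.8 was lost without replicate 1. The pooled count of 15 was 14 by overlap and 16 within 1000 bp, and ran from 13 to 18 in the replicate lists. The count of 13 in both replicates was 10 by overlap. The sls-1 counts stayed at 0 under the settings tried. Of 25 alternatives for counts, 24 lay within 1.5 times the reported count. These include the sls-1 alternatives, which compare 0 with 0 and add nothing on robustness. Of 24 for ranks and summits of single genes, 12 moved by at least the replicate spread. Most of these alternatives are the single replicate values that set this spread, so the count does not measure robustness. Summits of 27 and 209 bp at sls-2.8 counted as unmoved, while a rank of 43 in place of 42 at sls-2.1 counted as moved. With words of 50 bases the shares of sequence found once were 50.8% in sls-2.1, 65.6% in sls-2.2 and 96.7% in sls-2.4. No paired analysis was possible because there was 1 group and no test. Depth is unknown, 2 replicates limit every spread given, the pooled list has its reads in common with both replicate lists, and the fixed peak width limits how finely sls-2.8 and its neighbour Y75B8A.23 can be resolved.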
